A study of Mus musculus with 13 samples.

Results

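The chromosome 6 regions that the authors listed as WT-specific for H3K27me3 number 7698, of 57909 regions in the union that was counted in every library and of 24049 union regions on chromosome 6. They were selected on H3K27me3 calls: they are the union regions on chromosome 6 whose names stand in the authors' deposited list of regions found in WT cells and not in SAFB/SAFB2 double knockout (DKO) cells. They make up 70.6% of the 10898 WT-specific regions of the genome, and the other classes on the chromosome are 10698 shared and 5653 DKO-specific regions. Because the list was made from H3K27me3 in these cells, the H3K27me3 difference between DKO and WT at these regions is a description with no test, and the difference in total H3 is tested.

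H3K27me3 is the trimethyl mark that Polycomb repressive complex 2 (PRC2) places on histone H3, and it marks repressed chromatin. In embryonic stem cells (ESCs) PRC2 is concentrated at CpG-rich promoters of silent developmental genes, and the mark can also extend as low, broad signal over intergenic DNA and gene bodies. SAFB and SAFB2 are paralogous nuclear proteins that bind RNA and DNA. Rosa26 is a locus on mouse chromosome 6 that is widely used to insert transgenes.

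All libraries came from a male mouse ESC line of CAST and B6 background labelled Rosa26-RMCE, given doxycycline for 3 days and fixed in 0.6% formaldehyde. The labels do not name what doxycycline induces. The groups were 4 DKO and 5 WT libraries for H3K27me3, and 2 DKO and 2 WT libraries for total H3. Clone 4 gave DKO replicate 1 for H3K27me3, and clone 13 gave the other DKO libraries of both antibodies. DKO replicate 3 and WT replicate 4 are labelled Old, DKO replicate 4 and WT replicate 5 are labelled New, words that the labels do not explain. Nothing in the labels says that replicates were separate cultures, so p-values measure library-to-library spread alone, and it may be technical. ChIP counts measure neither the RNA nor the protein of the deleted genes or of cell type markers, so they check neither the genotype nor the cell type.

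The regions held 1818647 to 3134799 counts per H3K27me3 library and 525847 to 736566 per total H3 library. A single WT-specific region of chromosome 6 held a median of 6 to 9 counts in the DKO H3K27me3 libraries, 8 to 14 in the WT H3K27me3 libraries and 3 to 4 in the total H3 libraries. Counting error is therefore large for 1 region, and sums over many regions carry most of what follows. WT replicate 1 stood apart from the other WT libraries: 18.4% of its H3K27me3 region counts lay on chromosome 6, against 22.4% to 24.3% in WT replicates 2 to 5 and 19.4% to 22.1% in the DKO libraries. It was the lowest WT library at 3345 of the 7698 regions (43.5%). The main group values are given with and without it.

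Sequence was read only at promoters, which few of these regions reach, and the sequences of the regions themselves were not read here. RefSeq windows of 300 bases (250 before and 50 after the start of a gene, assembly GRCm38.p6) were searched for the letters CG, which read the same on both strands. A WT-specific region overlapped 56 of the 1865 windows on chromosome 6, of 55 genes, and 16 of the 56 lay wholly inside one. The windows below are 4 of the 7 of these that belong to genes with a name, and they were picked after their values had been seen. The first is at an inner start of Cacna1c, which encodes the pore of the L-type voltage-gated calcium channel Cav1.2. Cntn6 encodes a contactin, a cell adhesion molecule of neurons, Iapp encodes the islet hormone amylin, and Tuba3b encodes an alpha tubulin. The last is at the CpG-rich outer start of the same Cacna1c gene, inside a shared region, and is set beside the others for contrast. Capitals mark each CG.
Cacna1c inner start, WT-specific region, chr6:118757925-118758224, minus strand: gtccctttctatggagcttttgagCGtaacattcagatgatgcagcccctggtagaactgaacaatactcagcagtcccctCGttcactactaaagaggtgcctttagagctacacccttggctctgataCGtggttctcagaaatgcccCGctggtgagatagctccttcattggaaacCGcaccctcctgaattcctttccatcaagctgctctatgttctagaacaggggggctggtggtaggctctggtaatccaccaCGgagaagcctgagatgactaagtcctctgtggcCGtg
Cntn6, WT-specific region, chr6:104492794-104493093, plus strand: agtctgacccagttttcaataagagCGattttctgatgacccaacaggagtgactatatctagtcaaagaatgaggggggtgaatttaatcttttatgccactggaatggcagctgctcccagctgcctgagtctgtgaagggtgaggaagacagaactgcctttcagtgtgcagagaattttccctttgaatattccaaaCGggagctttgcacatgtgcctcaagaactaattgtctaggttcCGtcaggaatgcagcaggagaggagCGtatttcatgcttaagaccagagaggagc
Tuba3b, WT-specific region, chr6:145615713-145616012, plus strand: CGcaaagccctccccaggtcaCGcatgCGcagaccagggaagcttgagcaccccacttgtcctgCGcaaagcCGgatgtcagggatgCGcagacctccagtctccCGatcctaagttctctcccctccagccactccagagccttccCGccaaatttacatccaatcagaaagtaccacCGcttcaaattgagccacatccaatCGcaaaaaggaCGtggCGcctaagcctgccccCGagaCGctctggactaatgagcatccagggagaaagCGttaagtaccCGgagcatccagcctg
Iapp, WT-specific region, chr6:142298175-142298474, plus strand: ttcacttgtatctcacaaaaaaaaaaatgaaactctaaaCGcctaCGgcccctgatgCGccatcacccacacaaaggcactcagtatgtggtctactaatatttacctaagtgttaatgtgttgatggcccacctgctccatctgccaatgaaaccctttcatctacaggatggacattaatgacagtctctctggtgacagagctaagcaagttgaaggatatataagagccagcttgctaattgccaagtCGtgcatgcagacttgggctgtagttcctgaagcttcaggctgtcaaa
Cacna1c outer start, shared region, chr6:119108446-119108745, minus strand: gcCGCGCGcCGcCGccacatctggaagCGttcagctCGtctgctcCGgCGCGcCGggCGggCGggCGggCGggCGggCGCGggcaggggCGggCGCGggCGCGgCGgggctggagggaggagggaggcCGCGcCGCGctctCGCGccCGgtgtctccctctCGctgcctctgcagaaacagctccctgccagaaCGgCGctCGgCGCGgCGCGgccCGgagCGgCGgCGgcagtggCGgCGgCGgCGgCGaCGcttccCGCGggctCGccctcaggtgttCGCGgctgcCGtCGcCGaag

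The Cacna1c inner start holds 7 CG and the outer start holds 57. The region over the inner start (1083 bp) had 3.66, 6.15, 6.02 and 9.78 CPM in the DKO libraries and 6.73, 13.4, 6.0, 8.15 and 10.6 CPM in the WT libraries, where CPM is the count relative to the library's TMM-scaled total. The groups overlapped there. The region over the outer start is 6224 bp long and averaged 154.3 ± 15.8 CPM in DKO (SD, n = 4) and 195.5 ± 7.53 CPM in WT (SD, n = 5).

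The Cntn6 window holds 4 CG and its region is 633 bp long. That region had 2.44, 5.71, 3.17 and 7.42 CPM in the DKO libraries and 4.2, 8.96, 7.50, 7.78 and 9.0 CPM in the WT libraries, with overlap. The Tuba3b window holds 16 CG, the most of any of the 56 windows, and lies 126883 bp from the nearest shared region. Its region had 3.26, 6.15, 4.12 and 3.37 CPM in DKO and 6.31, 7.28, 3.00, 7.78 and 7.07 CPM in WT, so the groups overlapped through WT replicate 3. The Iapp region, with 4 CG in the window, had 4.48, 3.52, 4.12 and 2.36 CPM in DKO and 6.73, 5.60, 5.50, 6.67 and 6.11 CPM in WT, with no overlap.

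The promoter windows under this class were CpG-poor. The median was 3 CG in the 56 windows under WT-specific regions, 4 in the 58 under DKO-specific regions, 10 in the 654 under shared regions and 4 in the 1097 under no region. No window under a WT-specific region held 20 or more CG, against 3.45% of those under DKO-specific regions (2 of 58), 29.4% of those under shared regions, 21.0% of those under no region and 22.7% of all 1865. None of the 56 windows was also overlapped by a shared region. The plot of CG counts shows that the medians of the WT-specific, DKO-specific and uncovered windows lie close together and that of the shared windows lies above them.

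**Figure D1:**
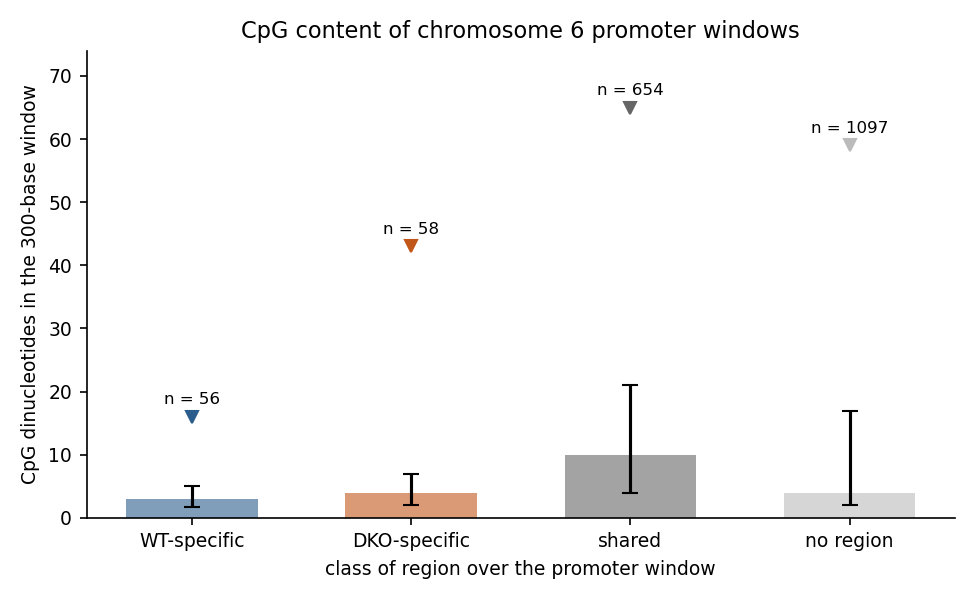
CG dinucleotides in the 300-base RefSeq promoter windows of chromosome 6, by the class of H3K27me3 region that overlaps the window; bars are medians, error bars span the quartiles and triangles mark the highest window, with the number of windows above. Windows under WT-specific regions have a median of 3 CG and a highest value of 16, against a median of 10 and a highest value of 65 under shared regions.

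The WT-specific regions were short. Their lengths ran from 258 to 2982 bp with a median of 434 bp, 61.5% were under 500 bp, and 441 (5.73%) reached 1 kb. DKO-specific regions of the chromosome were of similar length (median 420 bp), while shared regions had a median of 1075 bp and 54.4% of them reached 1 kb. Together the 7698 regions covered 3.94 Mb, against 16.87 Mb under the shared regions.

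They lay among the shared regions and mostly near them. The median gap to the nearest shared region was 2348.5 bp, with 30.1% of the WT-specific regions within 1 kb, 68.1% within 5 kb and 81.1% within 10 kb. DKO-specific regions of the same chromosome stood at nearly the same distances (median 2385 bp, 67.6% within 5 kb). WT-specific regions off chromosome 6 had a median gap of 2978 bp, but 17.8% of them were more than 50 kb from a shared region, against 3.33% on chromosome 6. The nearest region of any class was a shared one for 38.9% of the WT-specific regions, another WT-specific one for 35.5% and a DKO-specific one for 25.7%, beside class shares of 44.5%, 32.0% and 23.5% among all regions of the chromosome.

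Most occurred singly or in short runs. Read along the chromosome, the 7698 regions formed 4830 uninterrupted runs, and 3149 of the regions (40.9%) had no WT-specific neighbour on either side. The longest run was 18 WT-specific regions in a row at chr6:105352131-105502428, between Cntn6 and Cntn4, and the next was 13 in a row at chr6:76015361-76115767. The regions most isolated from shared ones were at chr6:69730342-69730656 and chr6:68214836-68215299, inside Igk, the immunoglobulin kappa light chain locus, at gaps of 794626 and 656303 bp. The third, at chr6:26433810-26434287, was 582191 bp from a shared region and 624533 bp from Pot1a, which encodes a telomere-binding protein.

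The regions spanned the whole chromosome. The first began at 4.009 Mb, near Gng11, a G protein gamma subunit gene, and the last ended at 149.44 Mb in Bicd1, which encodes a dynein adaptor. Of the 150 windows of 1 Mb, 7 held none, and the others held up to 161. Across the windows the number of WT-specific regions followed the number of shared regions (Spearman's rho 0.783, n = 150 windows of the same libraries) and of DKO-specific regions (rho 0.76), as a description. The stretch from 100 to 110 Mb held 1048 (13.6%), the most of any 10 Mb bin, and there 55.1% of all WT-called regions (shared plus WT-specific) were WT-specific. On chromosome 6 as a whole this share was 41.8%, and on the 19 other chromosomes with at least 100 WT-called regions it ran from 4.35% on chromosome 11 to 22.5% on chromosome 16.

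**Figure D2:**
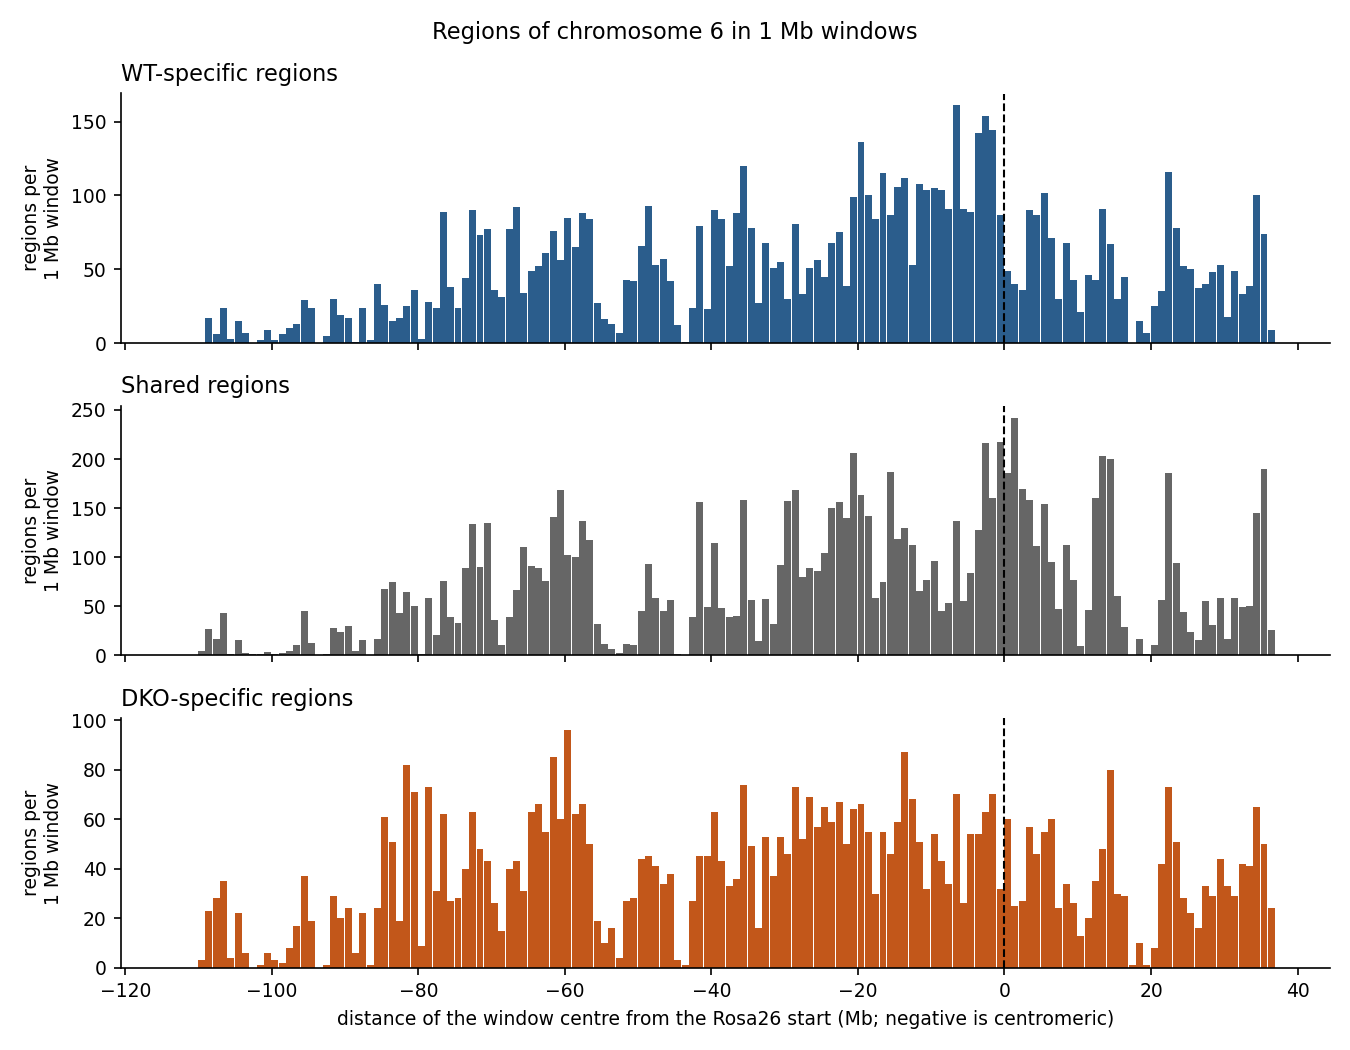
Number of WT-specific (top), shared (middle) and DKO-specific (bottom) regions of chromosome 6 in windows of 1 Mb, by distance of the window centre from the Rosa26 start in Mb (dashed line; negative values are centromeric). WT-specific regions peak at 161 per window in the 20 Mb centromeric of Rosa26 and drop at Rosa26 itself, where shared regions stay dense.

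Around Rosa26, whose start is at 113077191, WT-specific regions were a smaller share of what was called in WT than on the chromosome as a whole, as a description. Within 0.5 Mb of it there were 53 WT-specific and 202 shared regions, so 20.8% of WT-called regions were WT-specific. The share was 26.3% at 0.5 to 1 Mb, 33.2% at 1 to 2 Mb, 40.6% at 2 to 5 Mb and 50.0% at 5 to 10 Mb. The DKO-specific share of DKO-called regions was also lower near Rosa26, at 15.8% within 0.5 Mb, 19% at 1 to 2 Mb and 32.7% at 5 to 10 Mb, beside 34.6% on the whole chromosome. The sides were unequal. At 1 to 2 Mb the WT-specific share of WT-called regions was 49.5% on the centromeric side (153 regions) and 14.7% on the telomeric side (40 regions). At 5 to 10 Mb this WT-specific share was 58.9% and 39.4%. The DKO-specific share of DKO-called regions at 1 to 2 Mb was 29.4% on the centromeric and 10.0% on the telomeric side. Of all 7698 regions, 128 lay within 1 Mb of Rosa26, 924 within 5 Mb and 1781 within 10 Mb, and 76.2% lay centromeric of it, as did 70.3% of the shared regions.

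The WT-specific region closest to the Rosa26 start was chr6:113067608-113067893, 9.44 kb centromeric, where the ends of Gt(ROSA)26Sor, the non-coding RNA gene of the locus, and Thumpd3, a methyltransferase gene, overlap. It is 286 bp long, and its 3 to 9 counts per H3K27me3 library were too few for the count fit. Its level was 2.03, 1.76, 0.951 and 3.04 CPM in DKO and 2.52, 2.80, 4.50, 2.22 and 1.93 CPM in WT, so the groups overlapped. The next on that side, chr6:113065182-113066495 in Thumpd3, had 4.88, 6.59, 10.1 and 5.40 CPM in DKO and 8.83, 8.4, 13.5, 8.52 and 15.8 CPM in WT, and overlapped through DKO replicate 3.

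On the telomeric side the 2 nearest lay in Setd5, which encodes a SET domain protein. The one at chr6:113086876-113087891, 10.19 kb from the start, had 7.73, 2.20, 3.17 and 6.07 CPM in DKO and 5.89, 11.2, 10.5, 5.93 and 10.6 CPM in WT. The one at chr6:113089698-113090458 had 6.10, 6.59, 4.12 and 4.05 CPM in DKO and 6.31, 6.72, 4.50, 6.67 and 8.36 CPM in WT. The groups overlapped at both. Of the 18 genes listed as neighbours of Rosa26, 8 held a WT-specific region (39 regions in all), led by Srgap3 with 16 and Setd5 with 11, and 14 held a shared one.

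H3K27me3 in the 7698 regions, summed and divided by their length, was 6.06, 5.49, 5.83 and 6.53 CPM per kb in the DKO libraries and 7.06, 9.30, 8.99, 10.1 and 9.75 CPM per kb in the WT libraries. Every DKO library was below every WT library, and WT replicate 1 lay nearest to the DKO libraries. The means were 5.98 ± 0.437 in DKO (SD, n = 4) and 9.04 ± 1.18 in WT (SD, n = 5), a log2 ratio of -0.60. Without WT replicate 1 the WT mean was 9.53 ± 0.479 (SD, n = 4) and the log2 ratio -0.67. Among the libraries labelled Old or New the DKO values were 5.83 and 6.53 and the WT values 10.1 and 9.75, and among the others the DKO values were 6.06 and 5.49 and the WT values 7.06, 9.30 and 8.99. The list was made from this contrast, so its size describes the choice of the regions.

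The same quantity in shared regions of the chromosome averaged 9.20 ± 0.383 in DKO and 10.3 ± 0.823 in WT, with overlap through WT replicate 1, which had 8.86 (10.6 ± 0.296 in WT without it). In WT the level per kb of the WT-specific regions was thus close to that of the shared ones (9.04 against 10.3), although single shared regions reached a mean of 13910 WT counts and no WT-specific region exceeded 62.4. WT-specific regions off chromosome 6 averaged 6.56 ± 0.156 in DKO and 9.58 ± 0.398 in WT (9.41 ± 0.171 without WT replicate 1). Off chromosome 6 WT replicate 1, at 10.2, was above the other WT libraries, whereas on chromosome 6 it was below them. Of all region counts, the chromosome 6 WT-specific regions held 2.41%, 2.19%, 2.39% and 2.66% in the DKO libraries and 2.65%, 3.60%, 3.50%, 3.94% and 3.81% in the WT libraries. As a share of the counts on chromosome 6 alone, the ranges were 11.3% to 12% in DKO and 14.4% to 16.2% in WT, without overlap, whereas of all region counts DKO replicate 4 held slightly more than WT replicate 1.

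**Figure D3:**
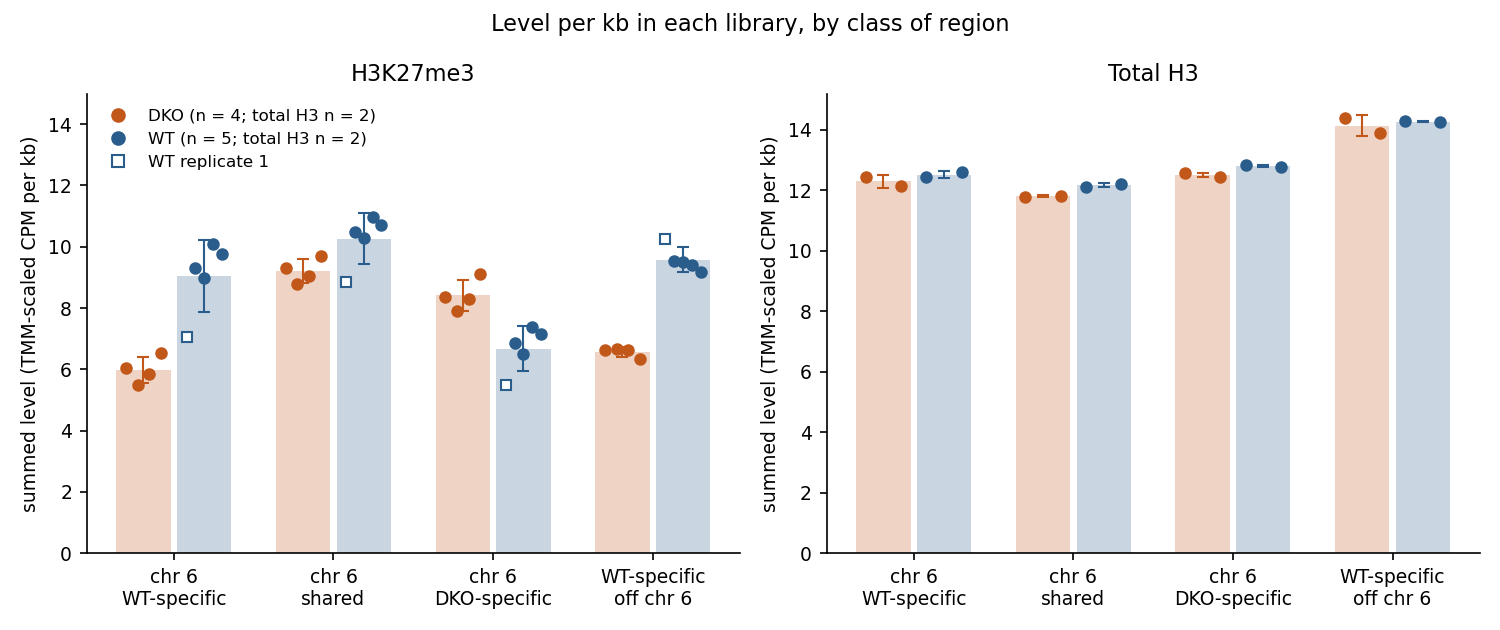
Summed H3K27me3 (left) and total H3 (right) per kb in each library, as TMM-scaled CPM per kb, for 4 classes of region; bars are means, error bars SD, points libraries, and open squares WT replicate 1. In the chromosome 6 WT-specific regions H3K27me3 averages 5.98 in DKO and 9.04 in WT, while total H3 averages 12.3 in DKO and 12.5 in WT.

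Within the class the level in WT varied little, though the list was made from calls on H3K27me3. From the 5th to the 95th percentile it ran from 7.47 to 11.7 CPM per kb in WT, and from 4.15 to 8.36 in DKO. It moved with length: regions under 300 bp averaged 6.61 in DKO and 10.4 in WT, and those of 1 kb or more averaged 5.59 in DKO and 8.38 in WT. The log2 ratio of DKO to WT differed less between length classes, at -0.65 in the shortest and -0.59 in the longest (-0.73 and -0.66 without WT replicate 1).

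The ratio was also similar along the chromosome. In the 15 bins of 10 Mb it lay between -0.65 and -0.55, and between -0.73 and -0.61 without WT replicate 1. By distance from Rosa26 it was -0.57 within 0.5 Mb, -0.62 at 5 to 10 Mb and -0.58 at 80 to 120 Mb (-0.64, -0.71 and -0.64 without WT replicate 1). Within 0.5 Mb the level averaged 6.18 ± 0.463 in DKO and 9.20 ± 1.09 in WT (9.63 ± 0.609 without WT replicate 1), and at 80 to 120 Mb it averaged 6.04 ± 0.481 in DKO and 9.06 ± 1.04 in WT (9.44 ± 0.697 without it). The share of WT-specific regions thus differed near Rosa26 while their level per kb differed by less than the spread between libraries. The list was made from this contrast, so a similar level and ratio describe the choice of the regions. Telomeric of Rosa26 at 0.5 to 1 Mb, where 25 WT-specific regions lie, their log2 ratio was -0.43 (-0.505 without WT replicate 1). The groups overlapped there, with DKO replicate 1 at 7.65 CPM per kb and WT replicate 1 at 7.15. In the shared regions of the chromosome the log2 ratio ran from -0.21 to -0.07 over the 10 Mb bins.

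**Figure D4:**
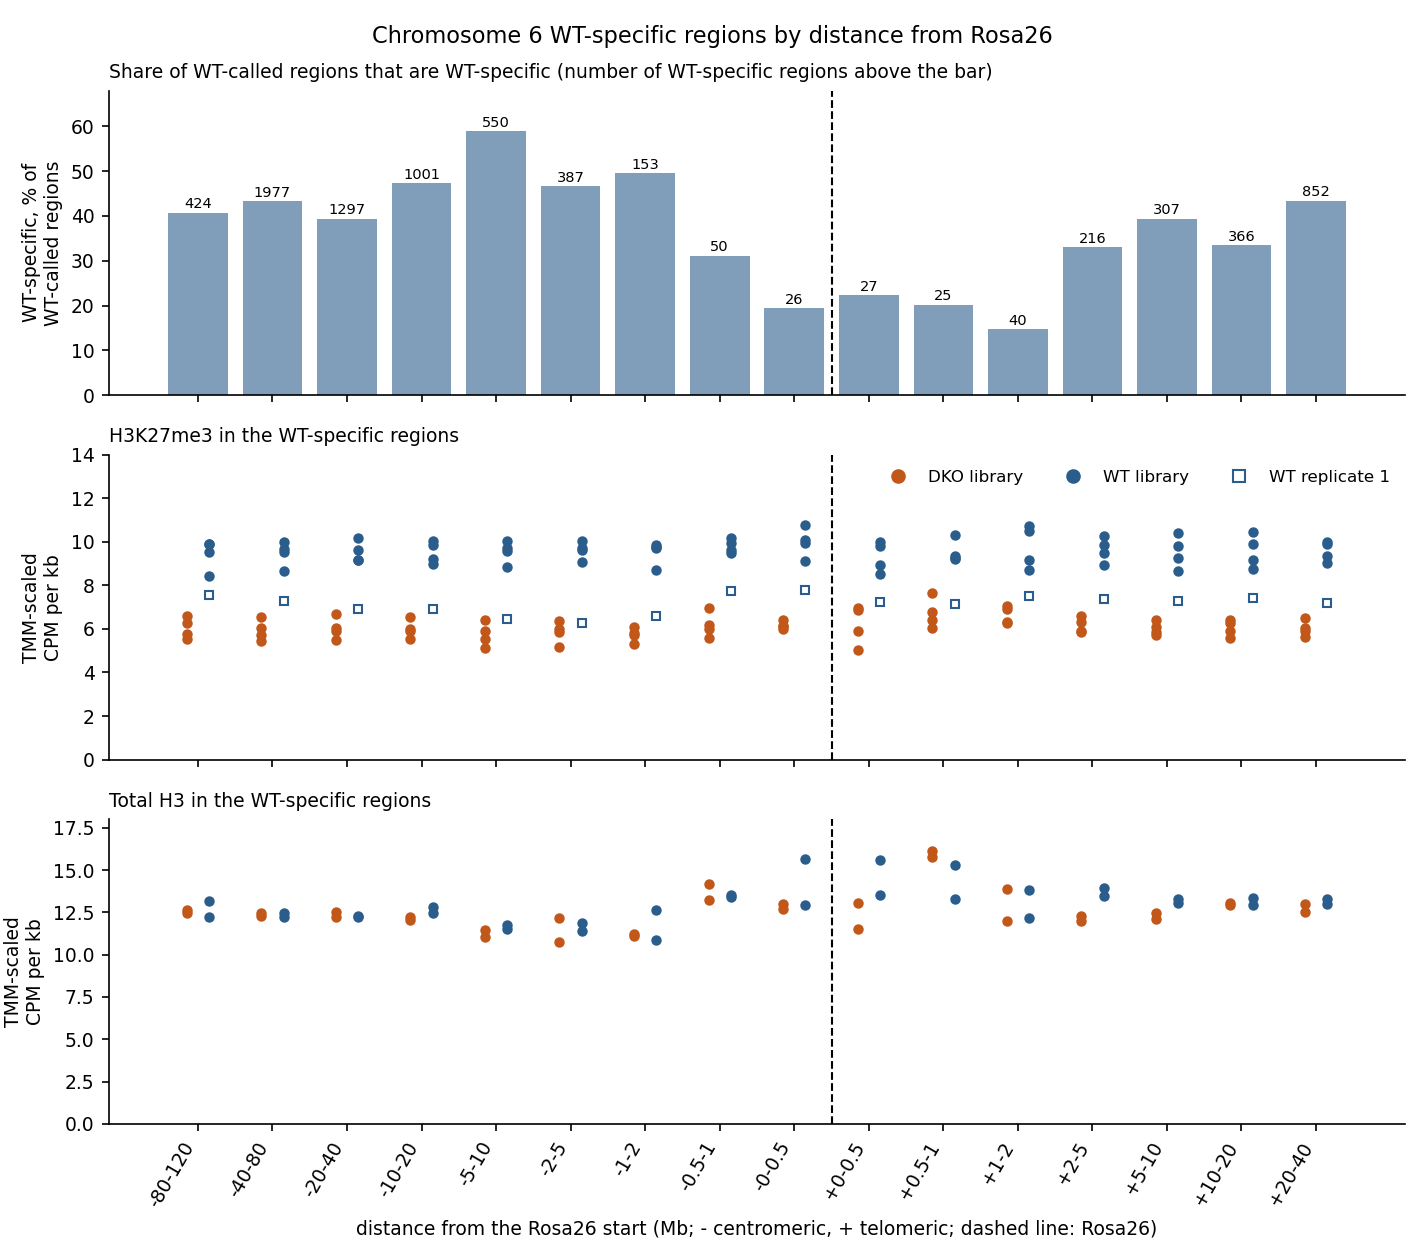
Chromosome 6 WT-specific regions by distance from the Rosa26 start in Mb (centromeric bins left of the dashed line): their share of WT-called regions in percent (top), and their summed H3K27me3 (middle) and total H3 (bottom) per kb in each library, as TMM-scaled CPM per kb. The share is 19.4% and 22.3% beside Rosa26, lowest at 14.7% at 1 to 2 Mb on the telomeric side and highest at 58.9% on the centromeric side, while the H3K27me3 points keep nearly the same height.

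At the level of single regions, the DKO mean was below the WT mean at 7594 of the 7698 (98.6%, beside 49.2% of all union regions). All 4 DKO libraries lay below all 5 WT libraries at 769 (9.99%, beside 3.23% of all union regions). Without WT replicate 1 this count was 1638 (21.3%, beside 6.28%). In the edgeR quasi-likelihood fit over all regions, 3311 of the 7698 passed the filter on low counts, and a region with enough counts in WT alone can pass. Of the 3311, 214 were called lower in DKO at a Benjamini-Hochberg adjusted p under 0.05 and 0 higher, beside 1.87% of all 40418 regions tested called lower and 4.01% called in either direction. Their median log2 fold change was -0.56, against -0.016 over all tested regions, and -0.60 over all 7698 with no filter. Leaving out WT replicate 1 moved the count to 526, and leaving out DKO replicate 3 moved it to 52. The rule used this contrast, so nothing is read from these counts.

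The regions with the most negative log2 fold changes had few counts in DKO, and most of them were inside genes. At chr6:118859032-118859601 in Cacna1c the level was 0.814, 0.879, 1.27 and 2.02 CPM in DKO and 4.2, 6.72, 7.0, 2.59 and 5.46 CPM in WT (log2 fold change -1.93 ± 0.43, SE). At chr6:137623571-137624167 in Eps8, an actin-capping protein gene, it was 1.22, 1.76, 0.634 and 2.70 CPM in DKO and 5.47, 7.28, 5.00, 5.56 and 4.18 CPM in WT (-1.75 ± 0.40, SE). The groups did not overlap at either.

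At chr6:56136621-56137239 in Pde1c, a calmodulin-dependent phosphodiesterase gene, it was 1.63, 1.32, 0.951 and 2.70 CPM in DKO and 3.78, 5.04, 5.50, 8.52 and 4.82 CPM in WT. At chr6:38752478-38753056 in Hipk2, a kinase gene, DKO libraries had 2.44, 2.20, 0.951 and 1.69 CPM and WT libraries 5.89, 5.60, 4.00, 5.56 and 6.11 CPM. The others of the 6 most negative lay in Ccser1, at chr6:61801632-61802008, and between genes at chr6:94478832-94479108.

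A few listed regions ran the other way. The highest log2 fold change was 0.39 ± 0.31 (SE), at chr6:147196377-147196897 in the transcript E330012B07Rik, with 6.92, 4.40, 4.44 and 5.73 CPM in DKO and 2.52, 3.92, 5.00, 2.96 and 5.79 CPM in WT. The groups overlapped there although the region is on the WT-specific list. Of the 3311 fitted regions, 10 had a log2 fold change above 0. The next 3, at chr6:107474566-107475081, chr6:15935242-15935823 and chr6:44018536-44019089, had 0.20, 0.11 and 0.08, and each fell below 0 in at least 1 leave-one-out fit.

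The longest regions carried the most counts. The 2982 bp region at chr6:94651426-94654407 in Lrig1, a gene for a negative regulator of receptor tyrosine kinases, is 97 bp from a shared region. It had 18.7, 14.5, 16.2 and 23.6 CPM in DKO and 24.4, 31.9, 25.0, 27 and 23.8 CPM in WT. The groups did not overlap, though DKO replicate 4 lay just under WT replicate 5. At chr6:100035258-100037642, between genes, DKO libraries had 15.1, 7.91, 12 and 13.5 CPM and WT libraries 18.5, 21.8, 23.5, 27.8 and 21.2 CPM. The other 3 of the 5 longest, one of them in Prickle2, a planar cell polarity gene, averaged 13.0 to 13.3 CPM in DKO and 18.4 to 18.9 CPM in WT.

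The densest signal in WT was 16.2 CPM per kb, at the 277 bp region chr6:94478832-94479108 and at the 280 bp region chr6:114577476-114577755. The first had 2.03, 0.440, 1.90 and 1.01 CPM in DKO and 2.94, 4.48, 4.50, 6.30 and 4.18 CPM in WT, without overlap. The second had 3.26, 4.84, 3.49 and 3.37 CPM in DKO and 5.47, 4.48, 3.00, 5.19 and 4.50 CPM in WT, with overlap. Others high by this measure, in Jazf1, Tmem178b and Scrn1, had 8.56 to 9.48 CPM per kb in DKO and 13.9 to 14.6 in WT.

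The list names H3K27me3, and no source used here says whether total H3 served as a control when regions were called. Summed over all 7698 regions, total H3 was 12.4 and 12.1 CPM per kb in the DKO libraries and 12.4 and 12.6 CPM per kb in the WT libraries, a log2 ratio of -0.03. The regions held 4.89% and 4.79% of total H3 region counts in DKO and 4.91% and 4.96% in WT. The difference of -0.094 percentage points had a two-sided exact permutation p of 0.333, the smallest that 2 against 2 libraries allow. Measured against counts off chromosomes 6 and 11 the difference was -0.0151 points with an exact permutation p of 1. Measured against counts on chromosome 6 alone the difference was 0.15 points, higher in DKO, with an exact permutation p of 0.667. Its sign thus depended on the denominator. Set against total H3, H3K27me3 was 0.487 in DKO and 0.722 in WT, as the ratio of the 2 group means per kb. The same ratio was 0.464 in DKO and 0.671 in WT at WT-specific regions off chromosome 6. In the shared regions of chromosome 6 it was 0.78 in DKO and 0.844 in WT. The list was made from H3K27me3, so this ratio describes the choice of the regions.

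Single-region tests on total H3 could be made for 313 of the 7698, those with enough H3 counts (median length 1227 bp). By edgeR's quasi-likelihood test with Benjamini-Hochberg adjustment 0 of the 313 were called, beside 0.0211% of the 18938 union regions tested. At an unadjusted p under 0.05 there were 14 (4.47%), beside 6.17% of all tested. DESeq2 called 0 of 7698 and had 13 at an unadjusted p under 0.05, beside 0 called and 157 at that level among 57909 union regions. With no filter edgeR called 0 of 7698 and had 297, beside 2 called and 2830 among 57908. With so few calls in the genome, 0 calls do not set these regions apart. On simulated total H3 counts with the same 2 against 2 libraries, over 19181 regions, the fit called 8.96% of regions changed 1.5-fold, 34.3% of those changed 2-fold and 81.8% of those changed 3-fold. The changed regions were drawn from union regions of all classes above a floor on mean counts. Recovery at the WT-specific regions alone, with a median of 3 to 4 counts per library, was not measured.

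The smallest p in this edgeR test belonged to chr6:40158013-40159486 in Tmem178b, where total H3 was 11.4 and 13.6 CPM in DKO and 18.8 and 35.8 CPM in WT (log2 fold change -1.11 ± 0.42, SE; edgeR adjusted p = 0.66). H3K27me3 there averaged 9.58 ± 1.19 CPM in DKO and 11.7 ± 1.91 CPM in WT. At chr6:34456941-34458685, 17671 bp from Bpgm, a glycolytic side-branch enzyme gene, total H3 was 22.9 and 33.9 CPM in DKO and 15.7 and 12.9 CPM in WT (1.03 ± 0.40, SE; edgeR adjusted p = 0.68). The other 2 of the 4 smallest, like the one near Bpgm, had more total H3 in both DKO libraries, with edgeR adjusted p of 0.69 for each, so none of the 4 passed.

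Over 10 Mb bins the DKO mean of total H3 in these regions was lower than the WT mean in 13 of 15 bins and higher in 2, with log2 ratios from -0.10 to 0.11. In the shared regions it was lower in 12 of 15. In the WT-specific regions from 60 to 70 Mb it was 13.07 and 11.94 CPM per kb in DKO and 11.41 and 11.80 in WT, and from 70 to 80 Mb it was 11.96 and 11.62 in DKO and 11.27 and 11.35 in WT. From 110 to 120 Mb, the bin with Rosa26, it was 12.06 and 11.95 in DKO and 12.61 and 13.08 in WT. The DKO and WT libraries did not overlap in 9 of the 15 bins, these 3 among them (7 lower in DKO, 2 higher), nor in 13 of 15 for the shared regions. The shared regions of these 3 bins differed in the same directions (log2 ratios 0.08, 0.05 and -0.07, beside 0.11, 0.06 and -0.10 in the WT-specific regions). With 2 libraries a group no permutation test can pass 0.05. The H3K27me3 ratio in the 3 bins was -0.65, -0.61 and -0.59.

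Within 0.5 Mb of Rosa26 total H3 in the 53 WT-specific regions was 13.02 and 12.08 CPM per kb in DKO and 14.52 and 14.37 in WT, a log2 ratio of -0.20 without overlap. In the shared regions of the same stretch it was 12.63 and 12.83 in DKO and 13.82 and 13.17 in WT (-0.08). At 0.5 to 1 Mb the groups overlapped in the WT-specific regions, with 14.78 and 14.04 in DKO and 13.37 and 14.07 in WT. At 2 to 5 Mb on the telomeric side it was 11.99 and 12.27 in DKO and 13.45 and 13.92 in WT (-0.17, without overlap), beside -0.05 in the shared regions. At the same distance on the centromeric side the groups overlapped, with 12.15 and 10.77 in DKO and 11.90 and 11.40 in WT (-0.02). At 0.5 to 1 Mb on the telomeric side both DKO libraries were higher, with 16.11 and 15.77 beside 13.27 and 15.29 in WT (0.16, without overlap).

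The regions followed gene bodies about as often as the chromosome's bases do. A RefSeq gene body overlapped 54.4% of them and a named one 46.7%, beside 51.8% and 44.8% of the bases between the first and last region, and 58.7% and 49.9% of shared regions. A promoter row of the authors' table, which runs from 2000 bp before to 1000 bp after a start, overlapped 508 (6.60%), beside 6.63% of the bases and 12.5% of the shared regions. A region counted with any overlap, so shares of regions and of bases are not like measures. A stricter rule on how much of the region must lie inside the row gave 433. Of 1310 named genes on the chromosome, 436 (33.3%) held at least 1 WT-specific region.

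WT-specific regions were spread unevenly over genes. Among the 10 genes with the most WT-specific regions, the 9 reported here held 979 of them: Cntnap2 had 182, Cntn4 165, Grm7 136, Ctnna2 133, Cacna1c 84, Magi1 81, Foxp1 75, Tafa1 65 and Grin2b 58. Cntnap2 and Cntn4 encode neuronal adhesion proteins, Ctnna2 the neural alpha catenin, and Grm7 and Grin2b glutamate receptor subunits. Magi1 encodes a junctional scaffold, Foxp1 a forkhead transcription factor and Tafa1 a secreted neural protein. Per 100 kb of gene body, Cntn4 held 16.1, Grm7 14.8 and Cntnap2, whose body is 2241 kb long, 8.12.

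In Cntnap2 the summed H3K27me3 of these regions was 5.94, 5.56, 5.42 and 6.64 CPM per kb in DKO and 6.98, 9.48, 8.35, 10.1 and 9.78 in WT. In Cntn4 it was 5.85, 5.20, 5.74 and 6.65 in DKO and 6.23, 8.88, 9.98, 10.2 and 9.69 in WT, and overlapped through WT replicate 1. In Grm7, 1.97 Mb centromeric of Rosa26, it was 5.99, 5.42, 5.99 and 6.44 in DKO and 6.38, 9.42, 9.89, 9.79 and 9.92 in WT. There too DKO replicate 4 was above WT replicate 1 and below all other WT libraries.

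Across the 9 genes the means were alike, from 5.81 to 6.05 CPM per kb in DKO and from 8.79 to 9.08 in WT (9.29 to 9.76 without WT replicate 1). The list was made from this contrast, so like means describe the choice of the regions. In Cacna1c, 5.81 Mb telomeric of Rosa26, H3K27me3 was 5.86 ± 0.296 in DKO (SD, n = 4) and 8.93 ± 1.25 in WT (SD, n = 5), or 9.41 ± 0.818 without WT replicate 1. Total H3 in the same regions of Cacna1c was 11.4 and 12.6 CPM per kb in DKO and 13.6 and 13.7 in WT, without overlap between the groups. Foxp1 (12.3 and 11.6 in DKO, 12.5 and 13.2 in WT) and Tafa1 (11.3 and 11 in DKO, 12.6 and 11.4 in WT) were also lower in both DKO libraries, and the groups overlapped in the remaining 6. With 2 total H3 libraries a group, no two-sided exact permutation p can fall below 0.333, so lack of overlap does not set a gene apart.

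**Figure D5:**
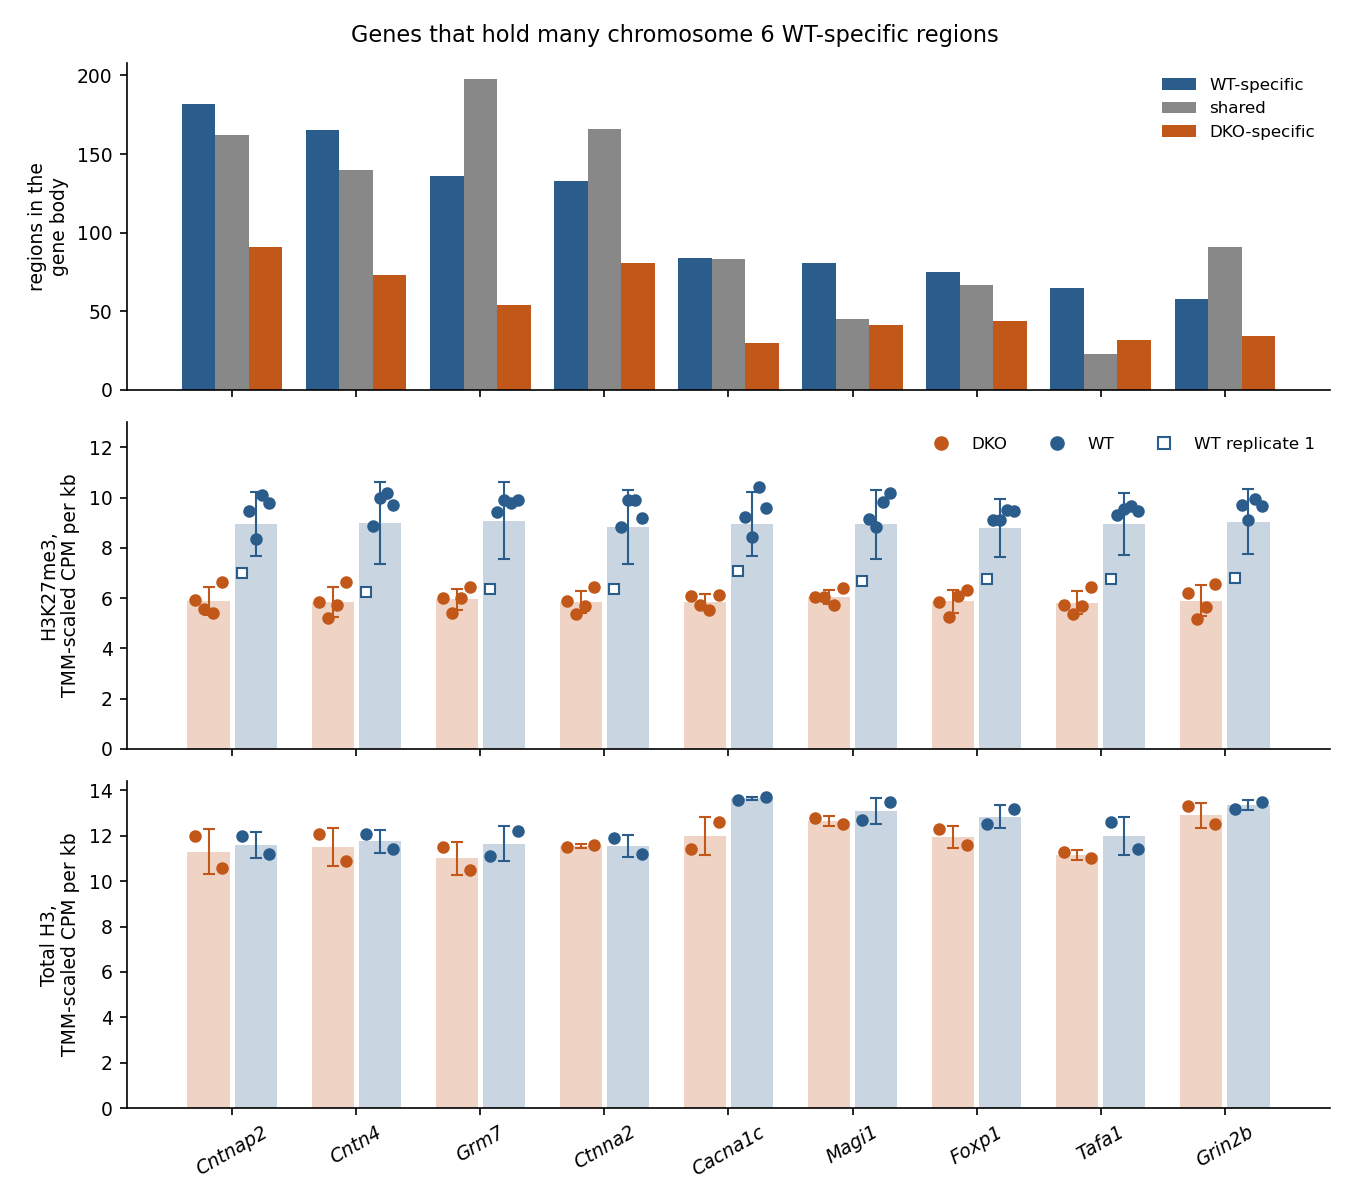
Genes with many chromosome 6 WT-specific regions (9 of the 10 with the most): regions of each class in the gene body (top), and the summed H3K27me3 (middle) and total H3 (bottom) of the WT-specific regions in each library, as TMM-scaled CPM per kb; bars are means, error bars SD, points libraries, open squares WT replicate 1. DKO means of H3K27me3 lie between 5.81 and 6.05 and WT means between 8.79 and 9.08 in all 9.

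All 18 neural adhesion and glutamate receptor genes reported from the list held a WT-specific region, and all 18 held a shared one. The WT-specific regions numbered 1047, of which 463 were fitted and 30 called lower in DKO (median log2 fold change -0.57). That is 6.48% of those fitted, beside 6.46% of all fitted WT-specific regions of the chromosome and 1.87% of all regions tested, so it does not set these genes apart, and the rule used this contrast. None of the 12 genes of the HoxA list, the homeobox cluster with its neighbour Evx1, held a WT-specific region, and all 12 held a shared one. HoxA is a classic PRC2 target in ESCs. Of 27 developmental transcription factor genes 11 held a WT-specific and 24 a shared region. Among the 11, Foxp1 (75), Sox5 (47), Creb5 (31) and Mitf (13) had the most, and in Sox5, a chondrocyte and neural regulator, the level was 5.75 ± 0.159 CPM per kb in DKO and 9.13 ± 1.14 in WT (9.60 ± 0.52 without WT replicate 1).

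Ion channel genes held WT-specific regions in 8 of 11 and shared ones in all 11. The WT-specific regions numbered 145, with 6 of 71 fitted called lower in DKO (8.45%, beside the same 6.46% and 1.87%). After Cacna1c, Ano2, a calcium-activated chloride channel gene, had 26, Kcnd2, a potassium channel gene, 16 and Cacna2d4, a calcium channel subunit gene, 8. In Kcnd2 the level was 5.62, 5.13, 4.73 and 5.42 CPM per kb in DKO and 7.17, 9.41, 9.54, 10.5 and 9.92 in WT, with no overlap. Ligand and receptor genes held WT-specific regions in 10 of 15 and shared ones in 14. Of the 29 WT-specific regions Tgfa, a growth factor gene, had 9 and Wnt5b, Ret and Ephb6 had 3 each.

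Smaller genes held few. Of 15 listed genes of imprinted clusters 5 held a WT-specific region (7 regions, none fitted) and 14 a shared one. Sgce and Copg2 had 2 WT-specific regions each and Asb4, Herc3 and Pon1 had 1 each. Of 6 pluripotency genes 3 held a shared region and 1 a WT-specific one. The latter was the glucose transporter gene Slc2a3, with 2 regions that averaged 7.42 ± 0.943 CPM per kb in DKO and 9.41 ± 2.61 in WT (8.59 ± 2.15 without WT replicate 1). Nanog, Dppa3, Gdf3, Apobec1 and Phc1 held no WT-specific region. Of 19 lectin receptor genes 12 held 27 WT-specific regions in the body or a promoter row, and 10 of these genes held one in the body. A shared region was held by 6 of the 19. Olr1, a scavenger receptor gene, had 8 WT-specific regions and Clec1a 5.

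The taste and vomeronasal list took symbols that start with Tas2r or Vn1r. It therefore leaves out vomeronasal genes named otherwise, such as Vmn1r42, whose promoter row a WT-specific region overlaps. Of its 38 genes 11 held a WT-specific region in the body or a promoter row and 6 held a shared one. All 11 were bitter taste receptor genes of the Tas2r family or a pseudogene of it, and each was reached at its promoter row. Tas2r137 and Tas2r108 share 1 region, and with it Tas2r108 had 2. At the region of Tas2r137 the DKO libraries had 5.72, 4.64, 6.13 and 4.45 CPM per kb and the WT libraries 7.39, 11.3, 4.83, 12 and 7.63, with overlap through WT replicate 3. Reads from near-identical receptor and lectin genes may have been split or dropped in counting, so levels there are less certain.

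The regions over promoter rows with the highest WT level were led by chr6:42890927-42892581, 3872 bp from the olfactory receptor gene Olfr448, with 9.36, 7.91, 7.29 and 11.1 CPM in DKO and 10.1, 15.1, 17.0, 17.0 and 14.1 CPM in WT. At Mgp, which encodes matrix Gla protein, an inhibitor of calcification, chr6:136875254-136876670 had 5.70, 11.4, 5.71 and 11.1 CPM in DKO and 12.2, 14, 12, 12.2 and 12.5 CPM in WT. The groups did not overlap at Mgp, and total H3 was alike there (19 and 20.3 CPM in DKO, 18.8 and 21.5 CPM in WT). The other 6, at Gm5313, 5830405F06Rik, Gm7838, Rbsn, Vmn1r42 and Gm8203, averaged 7.30 to 8.79 CPM in DKO and 11.2 to 12.7 CPM in WT.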

How the data were processed

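The deposited region tables hold raw read counts that the authors made, with no normalization, over 1 union of regions for all libraries, and the deposited lists of WT-specific, DKO-specific and shared regions hold coordinates and names. The submitters' processing notes name, without roles, MACS2, Bowtie2, Subread, featureCounts (2.0.3 per the file headers), bedtools and build mm10. The sources used here do not say how regions were called, on which libraries and at what threshold, or whether counts include reads from the CAST allele. The members and gene lists were chosen with earlier results of these data known.

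Counts over all union regions were fitted with edgeR 4.0.16 in R 4.3.3 (quasi-likelihood F test, two-sided, no covariate), after filterByExpr (minimum count 10, minimum total 15) and TMM scaling, with Benjamini-Hochberg adjustment over all regions tested and calls under 0.05. Levels are TMM-scaled CPM; a level per kb is the summed CPM over the summed length. SE is the size of a log2 fold change over the root of F. The share of total H3 counts was compared by exact permutation over the 6 groupings of 4 libraries. Intervals between libraries cover the spread of these libraries; PCR reads without molecular identifiers are not independent molecules. Scaling, filtering, DESeq2 1.42.0, a replicate block, library subsets and leaving out each library were alternatives. The fits were tested on simulated counts. No 2 libraries were identical, and every pair within a group differed by more than counting noise. Per-sample columns left unused numbered 0. The promoter count table was used for the positions of its rows.

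Named regions were the 2 nearest to Rosa26 on each side, the first and last, the 5 longest, the 6 with the highest WT level per kb at 10 or more mean WT counts, the 6 lowest and 4 highest log2 fold changes, the 3 largest gaps, the 4 smallest total H3 p-values and the 8 highest over promoter rows. Named genes were the 10 with the most regions and up to 4 per list; others were named after their values were seen. One gene that these rules name, and its regions, are not reported here. Gene bodies came from RefSeq, assembly GRCm38.p6, without the 221 antigen receptor segment rows, and promoter sequences from RefSeq windows of the same assembly. Other computations used pandas 2.3.3, numpy 2.4.6 and scipy 1.17.1 in Python 3.11.15, and figures matplotlib 3.10.9.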

Additional observations from a re-analysis of the deposited data

Results flagged for a closer look

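Of 118 groups of 4 or 5 libraries whose values were screened, 9 (7.63%) held a library far from the rest of its group by Dixon's ratio, where chance flags about 1 in 20. WT replicate 1 was the low library in 4 of them, all sums over the WT-specific regions of a gene, in CPM per kb. It had 6.38 in Grm7, where the other WT libraries had 9.42 to 9.92, and 6.76 in Foxp1, where they had 9.10 to 9.51. It had 6.74 in Tafa1 beside 9.31 to 9.65, and 6.80 in Grin2b beside 9.12 to 9.96. Without this library the WT means were 9.76 in Grm7, 9.29 in Foxp1, 9.49 in Tafa1 and 9.61 in Grin2b.

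The other 5 were single regions, in CPM. DKO replicate 2 had 4.84 at chr6:114577476-114577755 beside 3.26 to 3.49 in the other DKO libraries, DKO replicate 1 had 10.2 at chr6:148614718-148615367 beside 4.44 to 5.06, and DKO replicate 3 had 6.34 at chr6:116174596-116175964 in Tmcc1 beside 8.79 to 9.11. WT replicate 3 had 4.00 at chr6:38752478-38753056 in Hipk2 beside 5.56 to 6.11 in the other WT libraries, and WT replicate 2 had 14 at the Mgp region beside 12 to 12.5. Each rests on few counts.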

How the results depend on the processing

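Depth limits single regions: most hold under 15 counts per library, and the total H3 tests reach 313 of 7698. How many of the regions were called lower in H3K27me3 depended on the settings. Against 214 of 3311 fitted regions, library totals as scaling gave 131 of 3311, DESeq2 5 of 7698, no filter 269 of 7698, a term for the library sets (Old, New or neither) 264 of 3311, the 3 WT libraries whose names share a stem (1, 4 and 5) as the only WT libraries 81 of 3797, and the replicate block 68 of 2478. Chosen after seeing the data, scaling by TMM over chromosome 6 gave 18 of 3311, the libraries labelled Old or New alone 73 of 5170 and the libraries with neither label 3 of 2746; the cause was not tested, but the subsets hold fewer libraries. Leaving out 1 library gave 52 to 526: 526 without WT replicate 1, 52 without DKO replicate 3, 63 without WT replicate 5, 66 without DKO replicate 2, 83 without WT replicate 4, 109 without WT replicate 2 and 125 without WT replicate 3. In every one of the 20 alternatives 0 were called higher. The median log2 fold change of the fitted regions, -0.56, stayed between -0.67 and -0.39, with -0.39 under scaling over chromosome 6, which moves the median of all regions to 0.15, and -0.64 to -0.51 with 1 library left out; it was -0.51 with the replicate block.

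For total H3, 4 regions of the genome were called, 2 with no filter, 0 by DESeq2 and 0 to 4 with 1 library left out (2 without DKO replicate 2, 0 without WT replicate 1 and 1 without WT replicate 2), where the lone library of a group is assumed to vary like the other group. None of the 10 alternatives called one of the chromosome 6 WT-specific regions, and the replicate block called 5 in the genome. Replicate numbers do not pair the libraries: deviations of same-numbered H3K27me3 libraries correlated at 0.005, -0.048, 0.022 and 0.11, and of total H3 libraries at -0.017. The DKO and WT libraries labelled Old correlated at 0.048 and those labelled New at 0.152. All pairs of a DKO and a WT H3K27me3 library ran from -0.199 (DKO replicate 4 with WT replicate 1) to 0.208 (DKO replicate 2 with WT replicate 1). A gap limit of 1 kb or 10 kb in place of 5 kb put 2320 or 6240 regions near a shared one, against 5241.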
